A study of Mus musculus with 27 samples.

Results

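The cytosolic ribosomal protein genes encode the proteins of the large (60S) and small (40S) subunits of the ribosome that translates nuclear-encoded mRNA. They were taken by gene name, as Rpl or Rps followed by a number with an optional letter, plus Rplp0, Rplp1, Rplp2 and Rpsa. An FPKM, which is a read density scaled to transcript length and to the depth of the library, of at least 1 in at least 3 of 27 libraries was required. Of 21823 genes in the table, 83 had such a name and 81 passed, 49 of the 60S and 32 of the 40S subunit. The gene with the lowest peak among those that passed was Rpl39l, at or above 1 FPKM in 8 libraries and at 22.5 FPKM in its highest. The pair that failed were the paralogs Rpl3l, with at most 0.225 FPKM, and Rpl10l, listed at 0 in every library.

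Liver sections of female wild-type C57BL/6 mice were laser microdissected and their RNA was sequenced. The mice were not pregnant (NP) or had reached day 8 (dpc8) or day 16 (dpc16) after coitus. The study's methods name the substrain as C57BL/6N and give virgin females of 8 to 14 weeks, and the labels name no transgene or drug. Zone 1 is the tissue around the portal vein, zone 3 that around the central vein and zone 2 the tissue in between. Each of the 9 combinations of stage and zone had 3 libraries. The labels do not tie the captured areas to animals, so zones of one stage may share an animal. If they do, p-values that treat the libraries as separate are too small, which bears most on comparisons averaged over zones.

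Ribosomal proteins are made in nearly equal numbers and assemble on ribosomal RNA in the nucleolus before the subunits are exported. Their mRNAs are among the most abundant of any cell, and in mammals they begin with a run of pyrimidines, the 5′ terminal oligopyrimidine tract, through which growth signals of the mTOR pathway control how strongly they are translated. The mRNA level is therefore only part of what sets ribosome production. In the liver, ribosome supply serves both the secretion of plasma proteins and hepatocyte growth.

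The start regions of members that rose in late pregnancy are printed here with those of the paralogs, because the pyrimidine run is the sequence feature that these genes are known for. A promoter was listed by RefSeq (build GRCm38.p6) for 61 of the 81 members, at 72 start sites. Each sequence runs 5′ to 3′ on the gene's strand from 50 bases before the annotated start to the 30th base from it, and capitals mark the longest uninterrupted run of C and T in that window, or the first of tied runs, as in Rps27l.
Rpl4 (chr9:64173337-64173416, + strand): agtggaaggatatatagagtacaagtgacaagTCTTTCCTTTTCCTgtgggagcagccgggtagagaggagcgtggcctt
Rps3a1 (chr3:86142639-86142718, - strand): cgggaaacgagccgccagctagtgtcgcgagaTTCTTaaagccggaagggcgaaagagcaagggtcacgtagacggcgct
Rps13 (chr7:116334161-116334240, - strand): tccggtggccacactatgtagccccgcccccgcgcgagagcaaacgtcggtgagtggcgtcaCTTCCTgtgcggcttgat
Rpl13a (chr7:45128716-45128795, - strand): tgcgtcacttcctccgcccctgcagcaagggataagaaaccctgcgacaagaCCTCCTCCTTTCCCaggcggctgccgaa
Rps25 (chr9:44407664-44407743, + strand): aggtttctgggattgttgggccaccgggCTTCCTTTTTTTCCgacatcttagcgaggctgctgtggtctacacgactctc
Rpl11 (chr4:136053364-136053443, - strand): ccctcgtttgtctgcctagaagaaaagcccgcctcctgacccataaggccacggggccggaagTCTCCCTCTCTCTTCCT
Rpl7l1 (chr17:46782627-46782706, - strand): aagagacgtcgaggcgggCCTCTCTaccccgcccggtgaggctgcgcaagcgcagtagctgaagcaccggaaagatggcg
Rpl22l1 (chr3:28805458-28805537, + strand): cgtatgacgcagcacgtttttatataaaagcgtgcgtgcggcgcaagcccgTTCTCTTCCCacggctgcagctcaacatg
Rpl39l (chr16:10170178-10170257, + strand): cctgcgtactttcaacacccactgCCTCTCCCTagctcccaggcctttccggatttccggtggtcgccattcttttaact
Rps27l (chr9:66946036-66946115, + strand): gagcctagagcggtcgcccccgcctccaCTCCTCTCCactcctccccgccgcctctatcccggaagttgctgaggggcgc

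The run was 17 bases long in Rpl11, 14 in each of Rpl4, Rpl13a and Rps25, 6 in Rps13 and 5 in Rps3a1. Among the paralogs it was 10 bases in Rpl22l1, 9 in Rpl39l and Rps27l, and 7 in Rpl7l1. A run of at least 8 bases stood in the window of 40 of the 61 members (65.6%) and of 33.6% of 27025 genes in the promoter table. The median of the longest run was 10 bases in members and 6 in all genes. Annotated starts can lie some bases away from the true one, and the window, not the transcript end, was searched.

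Over the full 300 bases of each promoter and on both strands, the letters CCGGAAG stood in 26 members (42.6%) and in 9.93% of all genes. CTCGCGA stood in 14 members (23%) and in 2.22% of all genes. The E-box letters CACGTG stood in 9.84% of members and 8.09% of all genes, TATAAA in 11.5% and 15.7%, and CGCATGC in 8.2% and 4.01%. No motif contains another, and overlaps between them were allowed. The members had a median GC content of 57% in these 300 bases against 52.7% for all genes, and these shares are descriptions of the letters only.

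The mapped reads of a library, estimated from the steps between low FPKM values, were 7.48 M in the shallowest and 32.95 M in the deepest (M, mega), with a median of 16.26 M. The estimate assumes that FPKM was scaled to mapped reads. Hepatocyte markers were abundant in all 27 libraries, with the 9 listed genes summing to between 40474 and 249610 FPKM. Zone markers followed the labels. The mean of 6 periportal genes was 7.48 to 9.24 log2 units in zone 1 and 1.11 to 3.27 in zone 3. The mean of 8 pericentral genes was 3.38 to 3.84 in zone 1 and 7.89 to 9.003 in zone 3.

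In 6 libraries, 4 Y-linked genes summed to between 7.92 and 23.2 FPKM, although the mice are labelled female, against at most 2.97 in the other 21. These were replicate 1 of NP zone 1, replicate 2 of NP zone 3, replicate 1 of dpc8 zone 1, replicate 2 of dpc8 zone 2, and replicate 3 of dpc16 zones 2 and 3. The 12 listed connective tissue and muscle genes summed to between 1056 and 4979 FPKM in these 6 libraries and to between 85.7 and 604 in the others. The 9 hepatocyte markers summed to a median of 44683 in the 6 and 75586 in the 21. Ribosomal protein mRNA moved with these libraries, so the main counts and medians are also given without them.

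The 81 genes took 4.09% to 7.99% of the FPKM sum in the 6 libraries with Y-linked FPKM and 2.43% to 3.67% in the other 21. The library median over the 81 genes lay between 8.03 and 8.76 log2(FPKM + 1) units in the 6 and between 7.38 and 8.12 in the 21. In replicate 1 of dpc8 zone 1, all 81 members exceeded both other libraries of the group, as did 77 in replicate 1 of NP zone 1 and 76 in replicate 3 of dpc16 zone 2. In replicate 2 of NP zone 3, the library with the lowest Y-linked sum of the 6, 35 members did so. How much the connective tissue or the origin of these libraries contributed to their ribosomal protein level was not tested.

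**Figure D1:**
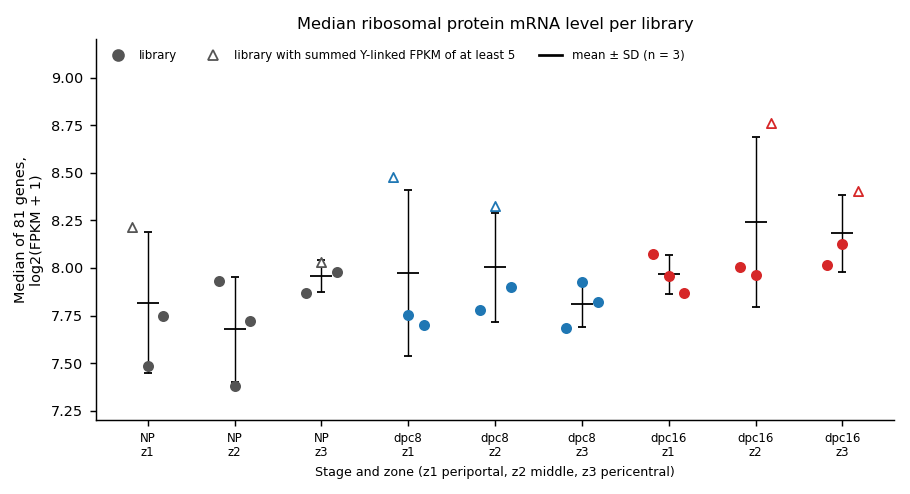
Median level of the 81 ribosomal protein mRNAs in each library, in log2(FPKM + 1) units, by stage and zone. Points are libraries, open triangles mark libraries with a summed Y-linked FPKM of at least 5, and bars are the mean ± SD of 3 libraries. Each of the 6 triangles is the highest point of its group, and they lie between 8.03 and 8.76.

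Levels of the members spanned a wide range within a library. Of the 81 genes, 75 had a median of at least 100 FPKM over the 27 libraries, and 80 were at or above 1 FPKM in every library. FPKM is scaled to transcript length, so genes can be set side by side. The highest medians belonged to Rpl13a, a 60S protein that can also leave the ribosome to repress translation, with 1063 FPKM (672 to 2283), and to Rpl18, also of the 60S subunit, with 660 FPKM (529 to 1476). They were followed by the stalk protein gene Rplp1 with 599 FPKM, and by the 40S genes Rps27 with 594 and Rps25 with 525. These 5 genes made up 13.3% to 16.6% of the summed FPKM of all members in each library.

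The lowest medians belonged to 3 paralogs and to a pair of 60S genes. Rpl39l was listed at 0 in 16 libraries. Rpl7l1 had a median of 41.4 FPKM, Rpl15 of 59.0, Rpl22l1 of 59.1 and Rpl29 of 70.4. The ranges of Rpl15 (39.0 to 122) and Rpl22l1 (12.6 to 93.3) overlapped, while the lowest value of Rpl13a lay above the highest of each of the 5.

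**Figure D2:**
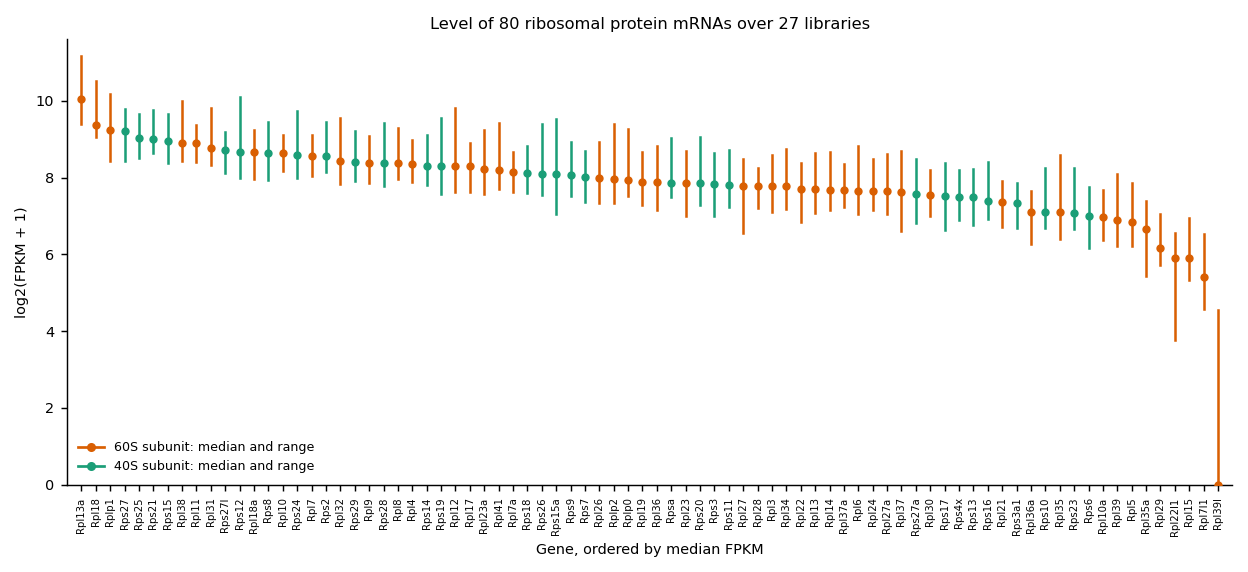
Level of 80 of the 81 ribosomal protein mRNAs in log2(FPKM + 1) units, ordered by median FPKM. Dots are medians and lines the range over 27 libraries, in orange for the 60S and green for the 40S subunit. Rpl13a stands at the left with a median of 1063 FPKM, and Rpl39l at the right with a median of 0.

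Levels of different members carry a further limit, because only uniquely mapped reads were counted and many of these genes have near-identical processed copies. In GENCODE vM21, the share of 86-base words (the read length) of the longest coding transcript that also occurred in a transcript of another gene was 0% to 84.7%, with a median of 33.7% over the 81 members. It was 50% or more in 24 members, with Rpl10 at 84.7% and Rps6 at 83.9%, and 10% or less in 16, with Rps3 at 0%. Exons of 15 members overlapped another protein-coding gene. A comparison of one gene between libraries has the same lost words on both sides.

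The genes with named roles outside the core were followed one by one. The stalk proteins Rplp0, Rplp1 and Rplp2 recruit translation factors to the 60S subunit. Rplp0 had a median of 242 FPKM, Rplp1 of 599 and Rplp2 of 249. Rpsa, the 40S protein also known as the laminin receptor precursor, stood at 233 FPKM. Rps6, the 40S target of S6 kinase, stood at 127 FPKM, with the high share of non-unique words given above. Rps27a, made as a fusion with ubiquitin, stood at 191 FPKM and Rpl41, the smallest member, at 295.

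The members varied together. After the group means were taken out, the correlation between pairs of members over the 27 libraries had a median of 0.77 (3240 pairs, -0.21 to 0.97), and 99.0% of pairs were above 0. Without the 6 libraries with Y-linked FPKM, over 21 libraries, the median was 0.53. After each library's median deviation over the members was also taken out, over all 27 libraries, the median was -0.01 and 48.9% of pairs were above 0. The joint variation was thus mostly a shift of whole libraries. The pairs share libraries, depth and normalization, and the values are descriptive.

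Rpl13 followed the rest most closely, with a correlation of 0.97 with the median of the other members and a remaining SD of 0.07 log2 units. The loosest were Rps27l, with a correlation of 0.18, Rpl7l1 with 0.21, Rpl22l1 with 0.35 and Rpl35a with 0.38. The spread within groups was largest for Rpl39l (SD 1.51 log2 units), Rpl22l1 (0.70) and Rpl35a (0.58) and smallest for Rpl10 (0.17), Rpl7a (0.21) and Rpl4 (0.22). The median SD was 0.34 for members and 0.45 for all 12952 genes tested. The 40S median exceeded the 60S median in all 27 libraries, by 0.13 to 0.41 log2 units.

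The first question was whether ribosomal protein mRNA rose in pregnancy. On the FPKM scale most members had a higher estimate at dpc16, few passed the test, and the direction did not hold on another scale. Averaged over the zones, 80 of the 81 members had a higher fitted level at dpc16 than in NP mice, with a median difference of 0.31 on the log2(FPKM + 1) scale against -0.01 for all genes tested. Past the threshold (limma, Benjamini-Hochberg adjusted p under 0.05 over 12952 genes), 6 members rose and none fell. That is 7.41% of the members, against 5.65% of all genes called higher (11.8% in either direction), so the share that passed was near the background. With the 6 libraries left out, 79 members were higher and the median was 0.25. At an unadjusted p under 0.05, 33 members were higher (40.7%, against 11.5% of all genes) and none lower. Fewer cells of a type and less RNA per cell cannot be told apart in such bulk samples.

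The direction depended on the scale. FPKM values depend on how each library was scaled, which the study's methods do not state, and the FPKM sum was higher at dpc16. Its median was 866176 against 616449 in NP and 597471 at dpc8. The albumin gene Alb took 15.2% to 20.98% of that sum in the 7 dpc16 libraries without Y-linked FPKM, 7.98% and 9.59% in the other 2, and 3.71% to 11.98% in all NP and dpc8 libraries. After each library was divided by its FPKM sum, the median of all genes moved to -0.33 and that of the members to -0.08, with 24 members higher, 57 lower and none called. A larger share of all genes was called on the divided scale than on the FPKM scale, and it is given below. Relative to the median of all genes, the members were 0.32 higher on the FPKM scale and 0.24 higher on the divided scale. After quantile normalization the members' median was 0.23 and only Rps3a1 was called, against 10.5% of all genes. The values that follow are on the FPKM scale.

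Rpl4, whose protein lines the exit tunnel of the 60S subunit, showed the change most clearly. In NP mice it measured 354, 237 and 269 FPKM in zone 1, 320, 241 and 316 in zone 2, and 303, 324 and 310 in zone 3. At dpc16 it measured 408, 448 and 374 in zone 1, 438, 443 and 505 in zone 2, and 424, 455 and 417 in zone 3. All 9 dpc16 libraries lay above all 9 NP libraries, which held for 0.818% of all genes in this direction and for no other member. The means were 435 ± 36.0 FPKM (SD, n = 9) and 297 ± 39.6 (SD, n = 9). The fitted difference was 0.56 ± 0.12 (SE), adjusted p = 0.0039, and 0.60 with adjusted p = 0.00018 without the 6 libraries. Only 7.02% of its 86-base words occur in another gene.

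Rps3a1, a 40S protein near the mRNA exit, measured 102 to 185 FPKM in NP (median 143) and 177 to 230 at dpc16 (median 203). The groups overlapped only through replicate 1 of NP zone 1, a library with Y-linked FPKM. The difference was 0.56 ± 0.13 (SE), adjusted p = 0.006, and 0.66 without the 6 libraries. Of its 86-base words, 54.7% occur in other genes.

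Rps13, another 40S protein, measured 107 to 190 FPKM in NP (median 171) and 165 to 297 at dpc16 (median 228). The single dpc16 library inside the NP range was replicate 3 of zone 1. Its difference was 0.57 ± 0.14 (SE), adjusted p = 0.01, and 0.58 without the 6 libraries. Rpl13a measured 672 to 1368 FPKM in NP (median 933) and 1152 to 2283 at dpc16 (median 1250), a difference of 0.56 ± 0.17 (SE), adjusted p = 0.031. Without the 6 libraries the NP range ended at 1063 FPKM and no dpc16 value lay inside it. Of the 86-base words, 29.5% of those of Rps13 and 55.8% of those of Rpl13a occur in other genes. Another protein-coding gene overlaps 621 of the 2114 exon bases of Rpl13a.

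The remaining genes that rose were Rps25 and Rpl11, and their groups overlapped. Their differences were 0.42 and 0.45 without the 6 libraries. Rps25, a 40S protein needed for some internal ribosome entry sites, had medians of 448 FPKM in NP and 646 at dpc16 and a difference of 0.42 ± 0.13 (SE), adjusted p = 0.035. Rpl11, which with Rpl5 and 5S rRNA can bind Mdm2, had medians of 437 and 590 FPKM and a difference of 0.42 ± 0.14 (SE), adjusted p = 0.044. Of the 86-base words, 18.9% of those of Rps25 and 60.4% of those of Rpl11 occur in other genes. Other protein-coding genes overlap 668 of the 2691 exon bases of Rps25.

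With the replicate number as a block within each stage, 3 members were called, Rpl4 (adjusted p = 0.023), Rps3a1 (0.029) and Rps13 (0.049), against 6.8% of all genes. The adjusted p of the other 3 then lay between 0.097 and 0.13. Without the 6 libraries 17 members were called, among them all 6, against 16.6% of all genes. The count ran from 3 to 12 when single libraries were left out, with 12 without replicate 1 of NP zone 1 (12.1% of all genes called). It was 3 without replicate 2 of NP zone 1, of NP zone 2, of dpc16 zone 1 or of dpc16 zone 3, and without replicate 1 of dpc16 zone 1, with 9.07% to 10.2% of all genes called.

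**Figure D3:**
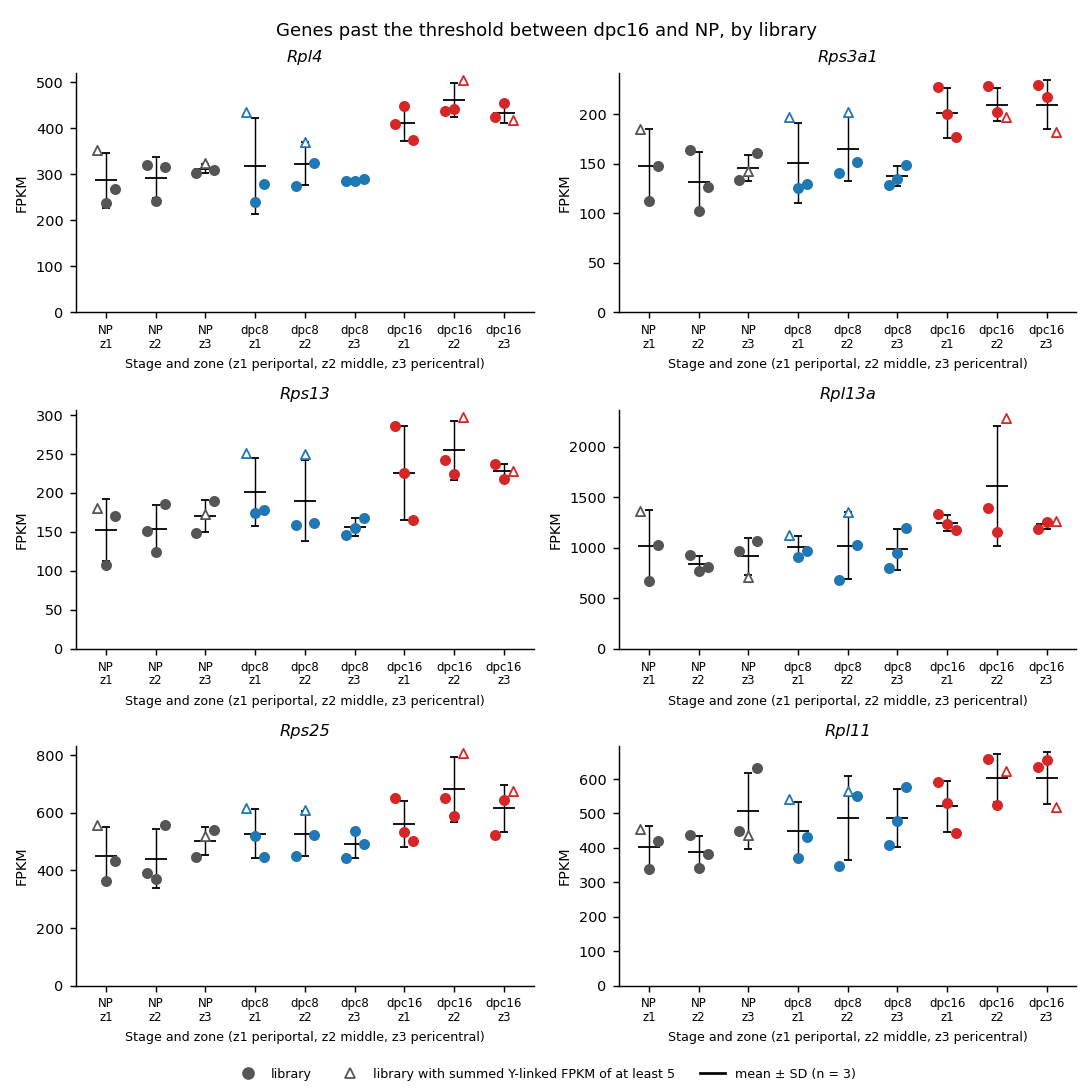
FPKM of the 6 genes past the threshold between dpc16 and NP, by stage and zone, with 1 point per library and open triangles for libraries with a summed Y-linked FPKM of at least 5. Bars are the mean ± SD of 3 libraries. For Rpl4 every dpc16 point, from 374 FPKM upward, lies above every NP point, the highest of which is at 354.

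**Figure D4:**
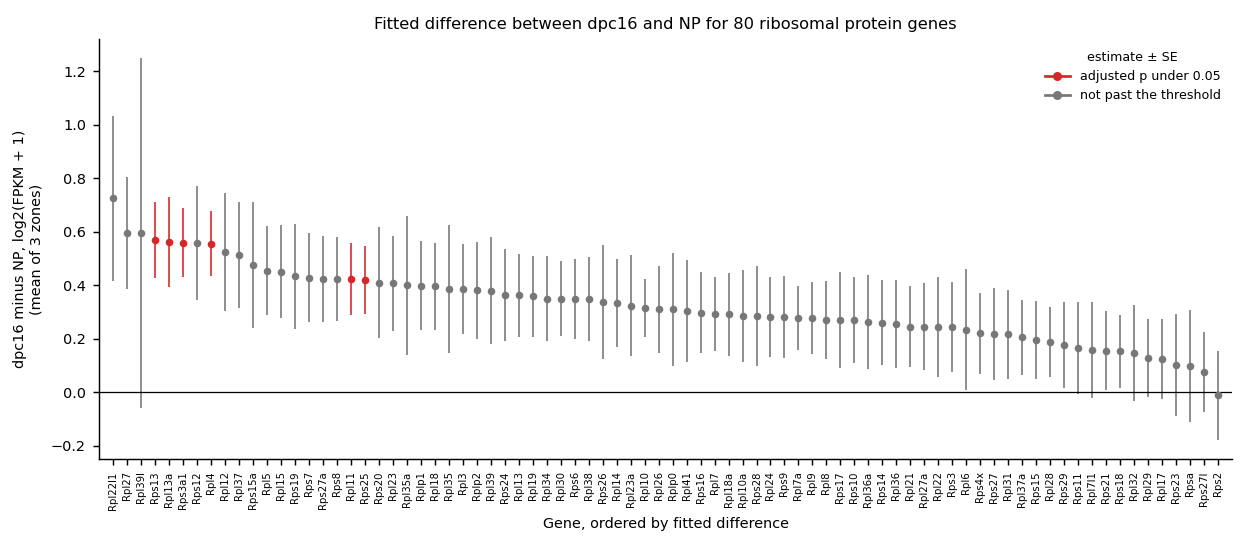
Fitted difference between dpc16 and NP, averaged over zones, for 80 of the 81 ribosomal protein genes on the log2(FPKM + 1) scale, with bars of 1 SE and red for an adjusted p under 0.05. All plotted genes but Rps2 lie above 0, and Rpl22l1, with the highest estimate of 0.73, is not among the genes in red.

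Members with large but uncertain estimates included Rpl22l1, with 0.73 ± 0.31 (SE) and adjusted p = 0.15. The stalk genes had estimates of 0.31 (Rplp0), 0.40 (Rplp1) and 0.38 (Rplp2), with adjusted p of 0.42, 0.13 and 0.2. Rps6 was at 0.35 (adjusted p = 0.15), Rps27a at 0.42 (0.096), Rpl41 at 0.31 (0.37) and Rpsa at 0.10 (0.84). The single member below 0 was Rps2, a 40S protein, at -0.01.

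Between dpc16 and dpc8, 77 of 81 members had a higher fitted level at dpc16, with a median of 0.23 against -0.01 for all genes. The members called were Rpl4 (0.51 ± 0.12 SE, adjusted p = 0.0085) and Rps3a1 (0.47 ± 0.13 SE, adjusted p = 0.022). At an unadjusted p under 0.05, 16 members were higher (19.8%, against 11.5% of all genes). The called members are 2.47% of the members, against 5.37% of all genes called higher and 11.1% called in either direction. Rpl10, one of the proteins that joins the 60S subunit last, was the member whose 9 dpc16 values all lay above its 9 dpc8 values, a state that 0.896% of all genes shared, but it was not called. Rpl4 ranged from 240 to 435 FPKM at dpc8 and from 374 to 505 at dpc16, with replicate 1 of dpc8 zone 1, a library with Y-linked FPKM, as the only dpc8 value above 374.

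Without the 6 libraries the members called between dpc16 and dpc8 were 15, all higher, against 18.7% of all genes called, and with the replicate block only Rpl4 was called (adjusted p = 0.043), against 6.18% of all genes. On the scale divided by the FPKM sum, 77 members were lower, the members' median was -0.22 against -0.38 for all genes, and Rps27l was called lower. With single libraries left out the count was 1 to 7. It was 7 without replicate 1 of dpc8 zone 1 (12.3% of all genes called). It was 4 without replicate 2 of dpc8 zone 2 (10.8%) or replicate 3 of dpc16 zone 1 (12.1%). It was 1 without replicate 2 of dpc8 zone 1 (9.13%), replicate 1 of dpc8 zone 2 (9.24%) or replicate 1 of dpc16 zone 1 (8.79%). Both comparisons with dpc16 use the same dpc16 libraries.

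At dpc8 no change was detectable. Averaged over zones, 70 of 81 members had a higher estimate than in NP, with a median of 0.09, no member was called by limma, and none had an unadjusted p under 0.05. Of all genes 0.108% were called. Without the 6 libraries the median was 0.02, with 43 members higher and 38 lower. The smallest p in each direction belonged to Rps19, a 40S protein mutated in Diamond-Blackfan anaemia, with 0.36 ± 0.20 (SE), and to Rpl7l1, with -0.34 ± 0.18 (SE).

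The change was then read in each zone, with 3 libraries a group. No member passed the threshold in any of these 9 comparisons. For dpc16 against NP the background of called genes was 1.37% in zone 1, 2.66% in zone 2 and 1.32% in zone 3, and the members' medians were 0.15, 0.59 and 0.22. At an unadjusted p under 0.05, 3 members were higher in zone 1, 41 in zone 2 and 2 in zone 3, against 6.45%, 7.13% and 5.23% of all genes. In zone 2 the 3 dpc16 values lay above the 3 NP values in 34 members (42%, against 7.77% of all genes), in zone 3 in 20 (24.7%, against 7.84%) and in zone 1 in 3 (3.7%, against 9.42%). Replicate 3 of dpc16 zone 2 had the highest Y-linked sum of all libraries. Without the 6 libraries, the medians were 0.37, 0.31 and 0.13, and 2 members were called in zone 1 and 2 in zone 2, against 2.92% and 4.45% of all genes.

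For Rpl4 the differences between dpc16 and NP were 0.53, 0.66 and 0.47 in zones 1, 2 and 3, each ± 0.21 (SE), and in each zone the dpc16 values lay above the NP values. The adjusted p were 0.31, 0.1 and 0.39, and in zone 1 Rpl4 was at -0.0808 after division by the FPKM sum. For Rps3a1 they were 0.46, 0.70 and 0.52, each ± 0.23 (SE), with adjusted p of 0.46, 0.1 and 0.36. Whether the change differed between zones was tested as an interaction. No member was called in any of the 6 contrasts, in which 0%, 0.0154% or 0.054% of all genes were called. The smallest adjusted p of a member was 0.78, in the contrast of zones 1 and 2 for dpc16 against NP.

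For dpc16 against dpc8 the background was 2.01% in zone 1, 1.51% in zone 2 and 1.37% in zone 3, and the members' medians were 0.00, 0.30 and 0.33. All 3 dpc16 values lay above the 3 dpc8 values in 34 members in zone 3 (42%, against 11.1% of all genes), in 4 in zone 2 (4.94%, against 6.84%) and in 2 in zone 1 (2.47%, against 9.8%). For dpc8 against NP the background was 0.0309%, 0.00772% and 0.0154% in zones 1, 2 and 3, and the members' medians were 0.15, 0.27 and -0.14. With the 6 libraries left out, the medians in zones 1, 2 and 3 were 0.25, 0.21 and 0.25 for dpc16 against dpc8 and 0.11, 0.08 and -0.10 for dpc8 against NP. The counts of groups that did not overlap were made with all libraries. In zone 3, 12 members had all dpc8 values below all NP values (14.8%, against 5.07% of all genes).

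The members with the smallest p in single zones are given for completeness, and none was called. Rps19 in zone 2 measured 265, 210 and 190 FPKM in NP and 292, 548 and 342 at dpc8, a difference of 0.79 ± 0.34 (SE), adjusted p = 0.97. Rpl10 in zone 1 measured 409, 333 and 312 FPKM at dpc8 and 555, 438 and 440 at dpc16, a difference of 0.44 ± 0.19 (SE), adjusted p = 0.29, which was -0.27 after division by the FPKM sum. Rpl7l1 in zone 3 measured 43.7, 28.7 and 22.7 FPKM at dpc8 and 60.4, 60.5 and 50.7 at dpc16, a difference of 0.88 ± 0.31 (SE), adjusted p = 0.19. In these 3 cases the groups did not overlap, as they did not in this direction for 4.29%, 9.8% and 11.1% of all genes. Among members with an estimate below 0, the lowest p between dpc8 and NP belonged to Rpl29 in zone 1 (-0.12 ± 0.25 SE), Rpl7l1 in zone 2 (-0.53 ± 0.31 SE) and Rps3 in zone 3 (-0.40 ± 0.29 SE). Between dpc16 and NP the lowest p below 0 belonged to Rps2 in zone 1 (-0.25 ± 0.29 SE), Rpl7l1 in zone 2 (-0.15 ± 0.31 SE) and Rps27l in zone 3 (-0.09 ± 0.26 SE). Between dpc16 and dpc8 the lowest p below 0 belonged to Rps2 in zones 1 and 3, at -0.46 and -0.10, each ± 0.29 (SE), and to Rps27l in zone 2 (-0.16 ± 0.26 SE). In each of these the libraries of the compared groups overlapped.

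The zones of the lobule were compared at each stage, since hepatocyte functions are divided between periportal and pericentral cells. No ribosomal protein gene was called between zones 1 and 3, where 1.34% of all genes were called in NP, 1.61% at dpc8 and 1.55% at dpc16. The members' medians of zone 1 minus zone 3 were -0.13 in NP, 0.14 at dpc8 and -0.19 at dpc16. At dpc8 the sign turned without the 6 libraries, to -0.11, while NP moved to -0.30 and dpc16 to -0.10. Averaged over stages the median was -0.06 with all libraries and -0.16 without the 6, and no member was called in either case, against 5.59% and 8.18% of all genes.

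At dpc16, all 3 zone 1 values lay below all 3 zone 3 values in 15 members (18.5%, against 6.39% of all genes) and above them in Rpl10 (8.36% of all genes). Rpl10 measured 555, 438 and 440 FPKM in zone 1 and 417, 429 and 424 in zone 3, a difference of 0.16 ± 0.19 (SE), adjusted p = 0.95, which was -0.17 after division by the FPKM sum. It was the member with the smallest p above 0, and Rps4x, a 40S protein, the one with the smallest p below 0, at -0.39 ± 0.26 (SE), adjusted p = 0.89. In NP the smallest p belonged to Rps27l, with 292, 277 and 399 FPKM in zone 1 and 323, 555 and 536 in zone 3, a difference of -0.52 ± 0.26 (SE), adjusted p = 0.64. At dpc8 it belonged to Rpl3, with 338, 213 and 222 FPKM in zone 1 and 137, 210 and 200 in zone 3, a difference of 0.49 ± 0.29 (SE), adjusted p = 0.51. On the other side of 0 were Rpl27 in NP (0.27 ± 0.36 SE) and Rpl37a at dpc8 (-0.18 ± 0.24 SE). Averaged over stages they were Rpsa, at 0.18 ± 0.21 (SE), and Rps27l, at -0.29 ± 0.15 (SE). The high value of Rpl3 in zone 1 was from replicate 1, with Y-linked FPKM.

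The other zone comparisons also called no member. Between zones 1 and 2 the background was 0.154% in NP, 0.124% at dpc8, 0.139% at dpc16 and 0.919% averaged over stages. Between zones 2 and 3 it was 0.401%, 0.347%, 0.517% and 1.88%. At dpc16 all 81 members had a lower estimate in zone 1 than in zone 2, with a median of -0.31, and 27 were higher and 54 lower without the 6 libraries, with a median of -0.04. In NP, 76 of 81 were lower in zone 2 than in zone 3, with a median of -0.23, and 74 without the 6 libraries, with a median of -0.22. In 12 of them all 3 zone 2 values lay below those of zone 3 (14.8%, against 5.5% of all genes).

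The 4 paralogs that passed were read beside their parent genes. Paralogs of ribosomal proteins can replace or accompany their parent, and Rpl39l is known from male germ cells. Rpl39l was above 0 in all 6 libraries with Y-linked FPKM, with 5.24 FPKM in replicate 1 of NP zone 1, 1.46 in replicate 2 of NP zone 3, 3.65 in replicate 1 of dpc8 zone 1, 5.49 in replicate 2 of dpc8 zone 2, and 22.5 and 14.4 in replicate 3 of dpc16 zones 2 and 3. In the other 21 libraries it was above 0 in 5, at most 3.19 FPKM in replicate 3 of dpc16 zone 1. Of these 5, only that library and replicate 3 of NP zone 2 (1.13 FPKM) reached 1 FPKM. Rpl39l thus met the rule of 3 libraries only with the 6 libraries counted, so its presence in them is not a separate observation. It made up at most 7.83% of the summed FPKM of Rpl39 and Rpl39l. No stage difference was called, with 0.59 ± 0.65 (SE) for dpc16 against NP.

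Rpl22l1 made up 5.11% to 31.4% of the sum of Rpl22 and Rpl22l1, with a median of 23.0%. In NP it ranged from 12.6 to 93.3 FPKM, with both ends in zone 3, and at dpc16 from 53.2 to 83.7. Rpl7l1, a relative of Rpl7, made up 5.93% to 19.6% of its pair. Its highest value of 92.2 FPKM, in replicate 3 of NP zone 2, stood next to 33.5 and 41.4 in the same group. Averaged over zones, Rpl7l1 was higher at dpc16 than at dpc8 by 0.50 ± 0.18 (SE), adjusted p = 0.076, and it was among the 15 genes called without the 6 libraries.

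Rps27l, a p53-responsive relative of Rps27, was the paralog nearest to its parent in level, with 28.2% to 54.6% of the pair. Its share had a median of 41.0% in NP, 46.1% at dpc8 and 37.4% at dpc16, and the ranges overlapped. Levels of Rps27l had medians of 323, 422 and 422 FPKM at the 3 stages, and no comparison called it on the FPKM scale.

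**Figure D5:**
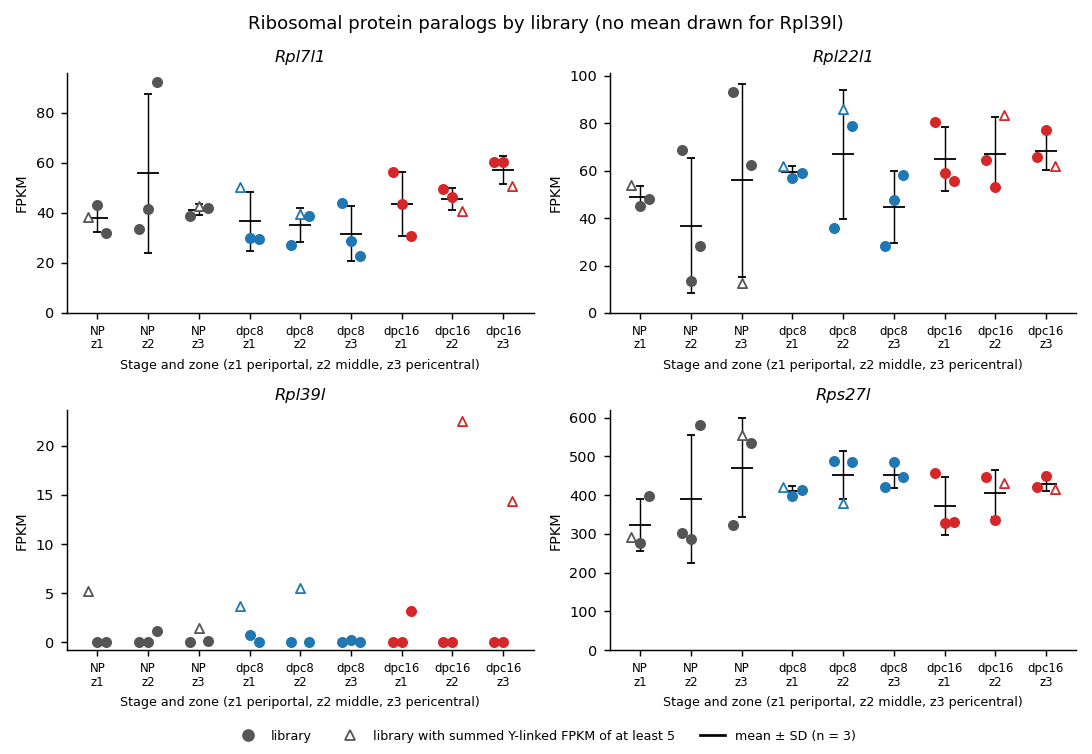
FPKM of the 4 ribosomal protein paralogs by stage and zone, with 1 point per library, open triangles for libraries with a summed Y-linked FPKM of at least 5, and bars of the mean ± SD of 3 libraries, which are not drawn for Rpl39l. The 2 highest points of Rpl39l, 22.5 and 14.4 FPKM, are triangles at dpc16.

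Genes of the same pathway were described beside the members. Rpl36al, a ribosomal protein gene whose name falls outside the rule and whose 60S protein differs little from that of Rpl36a, was called between dpc16 and NP, with 0.54 ± 0.12 (SE), adjusted p = 0.0036. It was at 0.55 without the 6 libraries, and at 0.15 with adjusted p = 0.3 after division by the FPKM sum. Its means were 74.9, 63.8 and 81.8 FPKM in zones 1, 2 and 3 of NP mice and 120, 103 and 98.3 at dpc16.

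Of 31 translation factor genes, 8 rose and none fell between NP and dpc16, where 5.65% of all genes were called higher, with a median of 0.32 over the list. They included Eif4e, which binds the mRNA cap, with 0.94 ± 0.17 (SE) and adjusted p = 0.00063. Eif2s2, the beta subunit of the factor that brings the initiator tRNA, was at 0.74 ± 0.15 (SE), and Eif3b, of the scaffold factor eIF3, at 0.66 ± 0.16 (SE). With the replicate block 4 of the 31 were called (6.8% of all genes), and without the 6 libraries 13 (16.6% of all genes). On the scale divided by the FPKM sum, none was called higher and 1 lower, and Eif4e was at 0.55 with adjusted p = 0.08. A larger share of all genes was called on that scale than on the FPKM scale, as given below.

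Of 39 ribosome biogenesis genes, 5 rose and none fell, against the same 5.65% of all genes, with a median of 0.34. The 3 largest were Gnl3 (nucleostemin, 0.81 ± 0.23 SE, adjusted p = 0.025), Eif6, which keeps the subunits apart (0.70 ± 0.15 SE, adjusted p = 0.0035), and Rrp12, a processing factor (0.60 ± 0.18 SE, adjusted p = 0.032). With the replicate block 1 of the 39 was called (6.8% of all genes), and without the 6 libraries 5 (16.6% of all genes). On the divided scale the list's median was -0.05 and 2 genes were called lower, with the share of all genes called there given below. Between dpc8 and dpc16, 6 of the translation factor genes rose, led by Eif4e (0.92) and Eif3b (0.74), and 4 of the biogenesis genes, led by Bysl (0.74) and Rrp12 (0.74), and none fell in either list, where 5.37% of all genes were called higher. With the replicate block the calls were 5 and 2 (6.18% of all genes). Without the 6 libraries they were 14 and 8, all higher, where the share of all genes called was that given above for the members in this comparison. On the divided scale, with 28.1% of all genes called, none was called higher in this comparison, 2 translation factor genes and 1 biogenesis gene were called lower, and the medians were -0.14 and -0.03.

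The remaining lists had medians between -0.03 and 0.15. Of 78 mitochondrial ribosomal protein genes, 5 rose between NP and dpc16, near the 5.65% of all genes, with a median of -0.01 (2 with the replicate block, against 6.8% of all genes, and 7 higher and 3 lower without the 6 libraries, against 16.6%), and the highest of the 5 was Mrpl20 at 0.69 ± 0.18 (SE), adjusted p = 0.014. None of 73 oxidative phosphorylation subunit genes was called by limma between NP and dpc16 (4 at an unadjusted p under 0.05, against 11.5% of all genes higher and 12.3% lower), with a median of -0.03. Without the 6 libraries 2 were called higher (16.6% of all genes), and with array weights also 2. After quantile normalization 2 were called lower, and with the connective tissue covariate 2 higher and 7 lower. The shares of all genes in these settings are given in the last section. For zone 1 minus zone 3 averaged over stages, Atp5g1, Atp5o and Cox7b were called higher by limma (adjusted p = 0.027, 0.036 and 0.027, against 2.7% of all genes higher). None of 14 growth control genes was called between NP and dpc16 (4 at an unadjusted p under 0.05, against the same 11.5% and 12.3% of all genes), with a median of 0.15. Without the 6 libraries 2 of them were called higher (16.6% of all genes). With array weights 2 were called higher and 1 lower, and with the connective tissue covariate 2 higher. On the divided scale, where the median of all genes was -0.33 and 25.1% were called, 37 mitochondrial ribosomal, 47 oxidative phosphorylation and 4 growth control genes were called lower and none higher, with medians of -0.39, -0.41 and -0.20. Between dpc8 and dpc16, 2 of the 14 growth control genes were called higher, where 5.37% of all genes were. Mtor itself rose by 0.43 ± 0.11 (SE), adjusted p = 0.014. Its means in zones 1, 2 and 3 were 12.3, 12.1 and 12.4 FPKM at dpc8 and 21.4, 14.6 and 15.3 at dpc16. Ddit4, an inhibitor of its complex, rose by 0.80 ± 0.26 (SE), adjusted p = 0.049. The group means of Ddit4 were low, from 1.85 FPKM in dpc8 zone 3 to 7.63 in dpc16 zone 1. Neither gene was called with the replicate block. On the divided scale 2 growth control genes were called lower and none higher in that comparison, with a median of -0.37.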

How the data were processed

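The deposited FPKM values were made by the authors with Cuffdiff of Cufflinks 2.2.1 from uniquely mapped single-end reads aligned to mm10 with HISAT2 2.1.0, after ribosomal RNA depletion and adapter trimming, for protein-coding genes, and each library has its own column. The study's methods do not state how Cuffdiff scaled the libraries to one another. Under scaling to mapped reads, a few abundant mRNAs can lower all others.

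From these values log2(FPKM + 1) was computed, and 12952 of 21823 genes with at least 1 FPKM in at least 3 libraries were kept. Means of the 9 groups were fitted over 27 libraries with limma 3.58.1 in R 4.3.3 (trend and robust, 18 residual degrees of freedom). Differences were tested two-sided, with Benjamini-Hochberg adjustment within each comparison and a threshold of 0.05. Fold changes are on the log2(FPKM + 1) scale, which understates those of low genes. Replicates are the labelled samples of a group, and nothing in the labels says that they came from separate animals. Where they do not, p-values measure only the spread between these samples.

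The estimated depths come from low values, of which 87.14% to 95.71% per library lay within 0.1 of a whole multiple of the value of 1 read. The fit was tested on simulated data. For dpc16 against NP in zone 1 it called 15 of 100 genes with a true log2 change of 1 and 67 of 100 with a change of 2, and averaged over zones 15 of 100 with a change of 0.5 and 66 of 100 with a change of 1. The simulated noise was drawn separately for each gene and library, without the library shifts that the members share. These rates therefore do not give the power of the fit for the ribosomal protein genes.

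Same-numbered zones deviated together at dpc16 (correlations 0.26 to 0.86, 9 of 9 above 0.1) but not throughout at dpc8 (5 of 9) or in NP (4 of 9). The 0.86 was between zones 2 and 3 of replicate 3, both with Y-linked FPKM. Same-numbered libraries of different stages in one zone reached 0.68, with 4, 3 and 4 of 9 above 0.1 in zones 1, 2 and 3. Whether animals were shared cannot be told from these values. The replicate block was fitted with limma's duplicateCorrelation (0.19). Genes were named by a rule of role, level, spread and call: stalk and other special members, paralogs, the 5 highest and 5 lowest medians, the 3 largest and 3 smallest spreads, and up to 3 called members per direction, or the smallest p where none was called. For dpc16 against NP all 6 called members are described, so 3 of them (Rpl4, Rps25 and Rpl11) go past that limit and were added after their values were seen. The genes, lists and rules were chosen with earlier results of these data known. Shared words and overlaps were computed from GENCODE vM21 transcripts, and the promoter windows from RefSeq. Alternatives were another pseudocount, no filter, division by the FPKM sum, quantile normalization, only the compared groups, array weights, the replicate block, a connective tissue covariate, and leaving out the 6 libraries with Y-linked FPKM or single libraries. Some genes are not reported here.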

Additional observations from a re-analysis of the deposited data

How the results depend on the processing

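Of 684 gene fold changes under alternatives, 609 kept direction and side of the threshold, 54 lost and 8 gained a call and 13 changed sign. Of 216 medians 6 moved by 0.29 or more, the SD of library medians within groups, and of 432 counts of called members 36 moved by over 1.5 times. The cause of the moves was not tested.

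For dpc16 against NP averaged over zones, where 6 members were called, the count (with the share of all genes called) was 0 after division by the FPKM sum (25.1%), 1 with quantile normalization (10.5%), 3 with only the compared groups (9.2%), 27 with array weights (22.4%), 45 with a covariate for connective tissue (19.8%), 17 when the 6 libraries of Y-linked signal were left out (16.6%), and 3 to 12 with single libraries left out. For dpc16 against dpc8, where 2 were called, these counts were 1, lower, after division (28.1%), 0 with quantile normalization (9.71%), 19 with array weights (27.2%), 15 without those libraries (18.7%), 23 with the covariate (19.1%) and 1 to 7 with single libraries left out. With the replicate block the counts were 3 (6.8%) and 1 (6.18%), and the block changed no other count of called members.

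In single zones, where none was called, dpc16 against NP gave 4 in zone 1 (5.15%) and 6 in zone 2 (8.5%) with array weights, 2 in either zone without the 6 libraries (2.92% and 4.45%), and 9 in zone 2 with the covariate (6.39%). For dpc16 against dpc8, array weights gave 3, 1 and 4 in zones 1, 2 and 3 (7.77%, 7.67% and 12.1%), leaving out those libraries gave 2 in zone 1 and 2 in zone 3 (4.38% and 3.87%), and division gave 1, lower, in zone 1 (11.7%).

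After division by the FPKM sum the members' median was -0.53 for zone 1 minus zone 3 at dpc16, -0.45 for dpc16 against NP in zone 1, and -0.70 and -0.08 for dpc16 against dpc8 in zones 1 and 2. Averaged over zones it was -0.08 against NP and -0.22 against dpc8. Rpl10 became -0.17 for zone 1 minus zone 3 at dpc16 and -0.27 for dpc16 against dpc8 in zone 1, and Rpl4 -0.0808 for dpc16 against NP in zone 1.

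Among genes that were not called, Rpl7l1 turned to 0.11 with array weights for dpc16 against NP in zone 2 and Rps27l to 0.0671 without the 6 libraries for dpc16 against NP in zone 3. With single libraries left out, Rpl27 ran from -0.0337 to 0.59 for zone 1 minus zone 3 in NP, Rpl29 from -0.40 to 0.0588 for dpc8 against NP in zone 1, Rpl7l1 from -0.44 to 0.28, Rps27l from -0.34 to 0.044, and Rps2 from -0.29 to 0.066 for dpc16 against dpc8 in zone 3.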
